A study of Mus musculus with 18 samples.

Results

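Sorted LCP cells taken at day 0 of differentiation (LCP_sorted_D0) were compared with Lgr5 cells sorted from the mouse cochlea at postnatal day 2 (Lgr5_P2). The labels do not explain the abbreviation LCP, which is taken to mean Lgr5-positive cochlear progenitor. The libraries were chosen by their titles, and 4 of the 18 RNA sequencing libraries of the series enter the comparison, 2 in each group. The LCP_sorted_D0 cells came from primary cochlear organoids and were sorted after expansion in culture. Neither the gate of that sort nor the culture medium, the time in expansion and the age of the donors is stated in the labels. Lgr5_P2 cells came from cochlear sensory epithelium and were sorted without culture. Unsorted organoids at the same day (LCP_D0) and native Sox2 cells of the same age (Sox2_P2) served as a check, with 2 libraries each. The labels give every sample as both ears of 1 pup, and give neither a strain nor a reporter allele for any of these groups. A treatment protocol in the labels describes tamoxifen and a stabilized beta-catenin allele, but no title among these groups names either.

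Lgr5 is a receptor for R-spondins, secreted proteins that strengthen Wnt signaling, and in the newborn cochlea it marks some of the supporting cells, the epithelial cells that surround the hair cells. In the native epithelium these cells have left the cell cycle, secrete much of the tectorial membrane that lies over the hair cells, and receive Notch signals from hair cells that keep them from becoming hair cells themselves. Cells sorted by Lgr5 can be grown in culture as organoids and can then be directed to make hair cell-like cells, so the comparison asks what expansion adds to and removes from their RNA beyond cell division.

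Values were deposited as TPM, the share of transcripts per gene after division by gene length, scaled to a fixed total per library. TPM keeps no depth, so read depth is unknown and counting error cannot be set. Genes at 1 TPM or more numbered 15382 and 14381 in the LCP_sorted_D0 libraries, and 15870 and 15295 in the Lgr5_P2 libraries. Mitochondrial genes took 9.18 and 8.84% of the TPM in LCP_sorted_D0 and 6.25 and 8.42% in Lgr5_P2. The 2 LCP_sorted_D0 libraries correlated with each other at a Pearson's r of 0.936 across genes and the 2 Lgr5_P2 libraries at 0.955, where genes are not independent replicates.

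Both groups of libraries were uneven inside. Lgr5 itself (mm10 chromosome 10, 115450311 to 115587780) was at 92.5 and 4.14 TPM in LCP_sorted_D0 cells, against 44.6 and 30.1 TPM in Lgr5_P2 cells, so the second LCP_sorted_D0 library held less of it than the 32.5 and 12.5 TPM of cells sorted by Atoh1, the hair cell transcription factor (Atoh1_P2). Sox2, a transcription factor of sensory progenitors and supporting cells, was at 30.1 and 16.5 TPM in LCP_sorted_D0 cells, against 139.9 and 45.7 TPM in Lgr5_P2 cells, without overlap between the groups. Neither gene passed the test (adjusted p = 0.743 for Lgr5 and 0.0809 for Sox2). In Lgr5_P2, hair cell genes summed to 4262 TPM in replicate 1 and 8177 TPM in replicate 2, while supporting cell genes summed to 18058 and 10209 TPM. The 2 native libraries therefore differed in opposite directions in these lists, and the name Lgr5_P2 stands for a sort that also held hair cell transcripts. Epcam, an adhesion protein of epithelial cells, was at 508 and 665 TPM in LCP_sorted_D0 cells, against 394 and 299 TPM in Lgr5_P2 cells, high in all 4 libraries.

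Of 21697 protein-coding gene identifiers in the files, 12757 reached 1 TPM in 2 or more of the 4 libraries and were tested. In all, 2249 of them passed an adjusted p of 0.05 (17.6%), with 822 higher (6.44%) and 1427 lower (11.2%) in LCP_sorted_D0. These p-values come from limma on log2(TPM + 1), fitted over all 18 libraries and adjusted over all 12757 genes. Where a log2 difference is given below, it is the LCP_sorted_D0 mean minus the Lgr5_P2 mean on that scale, which understates the change of genes with low values. The libraries of the groups did not overlap in any of the 2249 called genes, against 51.9% of all genes tested. Replicate 1 of both groups carries the same labelled sequencing date, and so does replicate 2, so each called gene differed in its direction within both dates. Cell cycle genes on lists for mitosis, DNA replication and histones made up 197 of the higher calls and 4 of the lower calls. Outside them, 625 genes rose and 1423 fell.

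**Figure D1:**
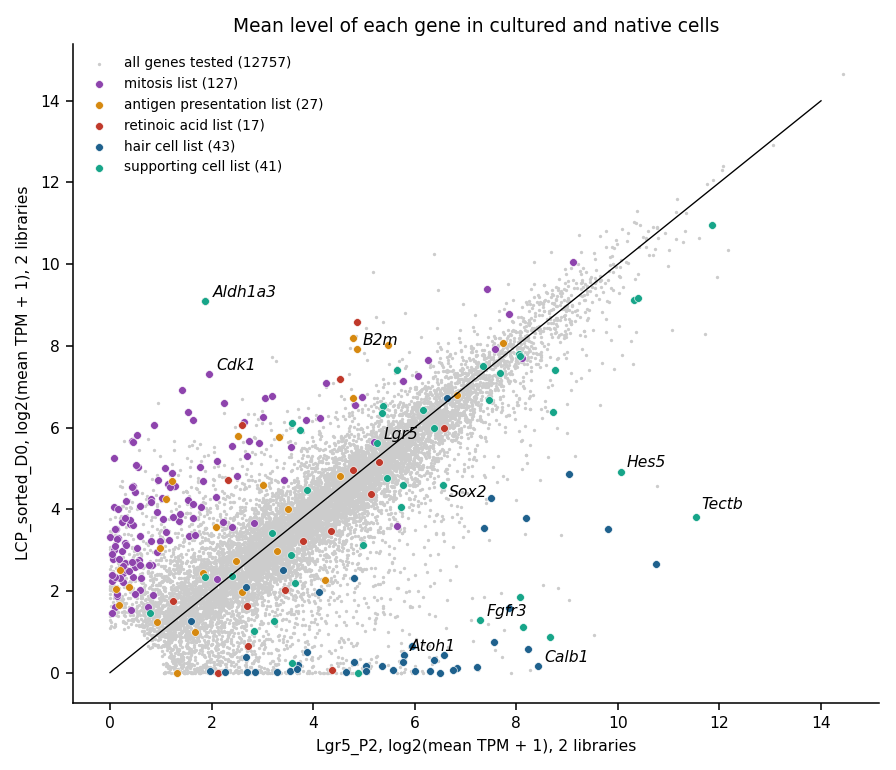
Each point is a gene, placed by log2(mean TPM + 1) over the 2 LCP_sorted_D0 libraries (y axis) and over the 2 Lgr5_P2 libraries (x axis), with equal levels on the black line and 5 gene lists in color. Mitosis and antigen presentation genes lie mostly above the line and hair cell genes along its lower edge, with Aldh1a3 (a member of 2 lists, drawn as supporting cell) far above it and Tectb far below it.

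The number of calls depended on which library was left out. Without LCP_sorted_D0 replicate 2 the fit called 1463 genes, and without Lgr5_P2 replicate 2 it called 1217 genes. Without LCP_sorted_D0 replicate 1 it called 2324 genes, 585 higher and 1739 lower, and without Lgr5_P2 replicate 1 it called 1589. In every one of these 4 fits 971 of the 2249 genes passed, 355 higher and 616 lower. Rescaling without mitochondrial and ribosomal protein genes moved the median of all genes tested by 0.17 on the log2 scale and median-ratio scaling moved it by 0.11, and neither turned the direction of a called gene. Genes named below passed in all 4 fits unless the paragraph says otherwise.

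Libraries outside the 2 compared groups gave a check. They entered the same fit of 18 libraries, so both comparisons share the estimate of spread of each gene. Their lists of calls are therefore not fully separate. Unsorted LCP_D0 organoids against Sox2_P2 cells had 3087 calls, 1538 higher (12.1%) and 1549 lower (12.1%). Of the 2249 genes above, 1662 were called there in the same direction and 2 in the opposite one, which is 73.9% of the first list and 53.8% of the second. The Sox2_P2 sort held hair cell transcripts too, with hair cell genes summing to 6352 and 7375 TPM. Lower levels in Lgr5 cells and hair cell content shared by both native sorts therefore cannot be told apart by this check. Setting the same LCP_sorted_D0 libraries against Sox2_P2 gave 922 higher genes (7.23%) and 1667 lower genes (13.1%). That comparison shares its cultured libraries with the main one, so no overlap is counted. These counts also moved with single libraries. LCP_D0 against Sox2_P2 had 1653 calls without LCP_D0 replicate 1, 1919 without LCP_D0 replicate 2 and 1417 without Sox2_P2 replicate 2, and LCP_sorted_D0 against Sox2_P2 had 1684 without LCP_sorted_D0 replicate 2 and 1441 without Sox2_P2 replicate 2.

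Most tested genes of mitosis and DNA replication rose. In LCP_sorted_D0, 114 of 127 tested genes of the mitosis list were higher and 1 was lower, with a median log2 difference of 2.52, against -0.13 over all genes tested. For DNA replication the counts were 70 higher and 1 lower of 98, and for replication-dependent histones 13 higher and 2 lower of 29. The higher shares were 89.8% for mitosis, 71.4% for replication and 44.8% for histones, against 6.44% over all genes tested. In the same order, the lower shares were 0.787%, 1.02% and 6.90%, against 11.2%. Another 14 of the 29 histone genes were not called, and 31 of the 60 listed were not tested. The histone count was 7 higher without LCP_sorted_D0 replicate 2 and 8 without Lgr5_P2 replicate 1. Cdk1 (mm10 chromosome 10, 69335146 to 69352938), the kinase that drives entry into mitosis, had 148 and 168 TPM in LCP_sorted_D0 cells, against 1.90 and 3.81 TPM in Lgr5_P2 cells (log2 difference 5.41, SE 0.52, adjusted p = 2.0e-05). Both cultured libraries stood far above both native ones. Mki67, a nuclear protein of dividing cells, had 4.12 and 10.97 TPM in LCP_sorted_D0 cells, against 0.0910 and 0.0599 TPM in Lgr5_P2 cells (log2 difference 2.86, SE 0.33, adjusted p = 6.87e-05). Knstrn, which encodes a protein of the kinetochore and spindle and was on none of the lists, had 30.7 and 55.3 TPM in LCP_sorted_D0 cells, against 0.746 and 0.229 TPM in Lgr5_P2 cells (log2 difference 4.85, SE 0.38, adjusted p = 3.98e-06).

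Not every gene of division moved that way. Cdc25b, a phosphatase that activates Cdk1, was lower in LCP_sorted_D0, at 8.92 and 13.3 TPM in LCP_sorted_D0 cells, against 42.2 and 56.5 TPM in Lgr5_P2 cells (log2 difference -2.07, SE 0.54, adjusted p = 0.016). Fanca, a DNA repair gene on the replication list, was also lower, at 14.7 and 10.5 TPM in LCP_sorted_D0 cells, against 75.2 and 112 TPM in Lgr5_P2 cells (log2 difference -2.79, SE 0.55, adjusted p = 0.00305). Cdc25b missed the threshold without Lgr5_P2 replicate 2 (adjusted p = 0.117) and without LCP_sorted_D0 replicate 1. Both genes were higher still in native Atoh1 cells, at 116 and 122 TPM for Cdc25b and 148 and 226 TPM for Fanca.

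Of 22 tested inhibitors and D cyclins, which set entry into the cycle, 3 rose and 3 fell (13.6% higher and 13.6% lower, against 6.44% and 11.2% over all genes tested). Ccnd1, a D cyclin and Wnt target, had 295 and 199.7 TPM in LCP_sorted_D0 cells, against 22.5 and 28.4 TPM in Lgr5_P2 cells (log2 difference 3.21, SE 0.59, adjusted p = 0.00186). Its relative Ccnd3 was lower, at 148 and 135 TPM in LCP_sorted_D0 cells, against 341 and 284 TPM in Lgr5_P2 cells (log2 difference -1.14, SE 0.21, adjusted p = 0.00184). Both D cyclins were thus present in every library, with opposite orders between the groups. Cdkn2c, an inhibitor of the D cyclin kinases, rose with the division genes, at 8.73 and 9.90 TPM in LCP_sorted_D0 cells, against 0.0491 and 0.102 TPM in Lgr5_P2 cells (log2 difference 3.26, SE 0.40, adjusted p = 0.000106). Cdkn1b, the inhibitor that holds native supporting cells out of the cycle, was at 5.14 and 7.68 TPM in LCP_sorted_D0 cells, against 10.6 and 11.1 TPM in Lgr5_P2 cells and did not pass the test (adjusted p = 0.329). No common direction was seen among the inhibitors. Cdkn2b, an inhibitor of the same kinases, was also called higher, at 8.37 and 14.6 TPM in LCP_sorted_D0 cells, against 0.879 and 1.14 TPM in Lgr5_P2 cells (log2 difference 2.59, SE 0.62, adjusted p = 0.010). Cdkn1c, an inhibitor of later kinases, and Btg2, which slows growth, were called lower, with log2 differences of -1.61 for Cdkn1c and -2.04 for Btg2. Cdkn1c was called in none of the 4 fits without a library. Cdkn2b and Btg2 were called only in the fit without LCP_sorted_D0 replicate 1. The count of lower genes was 1 without LCP_sorted_D0 replicate 2 or either Lgr5_P2 replicate.

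Aldh1a3 had the highest log2 difference among called genes outside the cell cycle lists. It encodes an enzyme that makes retinoic acid, the vitamin A product that binds nuclear receptors and switches on their target genes, and which patterns the developing inner ear. Aldh1a3 (mm10 chromosome 7, 66390890 to 66427517) had 856 and 240.1 TPM in LCP_sorted_D0 cells, against 2.43 and 2.91 TPM in Lgr5_P2 cells (log2 difference 6.96, SE 0.54, adjusted p = 3.98e-06). The lower cultured library still stood far above both native ones, and the log2 difference was 7.97 within the replicate 1 sequencing date and 5.95 within that of replicate 2. Unsorted LCP_D0 organoids had 302 and 477 TPM, against 16.3 and 13.2 TPM in Sox2_P2 cells.

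Of 17 tested retinoic acid genes, 5 rose and 3 fell (29.4% higher and 17.6% lower, against 6.44% and 11.2% over all genes tested), and those that rose and are named here serve the uptake or interconversion of retinoids or the response to them. Stra6, the membrane receptor that takes up retinol, had 142 and 147 TPM in LCP_sorted_D0 cells, against 25.8 and 18.6 TPM in Lgr5_P2 cells (log2 difference 2.67, SE 0.53, adjusted p = 0.00304). Dhrs3, which turns retinaldehyde back to retinol, had 57.8 and 73.8 TPM in LCP_sorted_D0 cells, against 8.05 and 2.04 TPM in Lgr5_P2 cells (log2 difference 3.66, SE 0.50, adjusted p = 0.000227). In each of these genes both cultured libraries were above both native ones. Rarb, a retinoic acid receptor and itself a classic target of the pathway, had 27.7 and 23.3 TPM in LCP_sorted_D0 cells, against 5.68 and 2.37 TPM in Lgr5_P2 cells (log2 difference 2.47, SE 0.49, adjusted p = 0.00307), and its adjusted p was at most 0.0497 when any 1 library was left out. LCP_D0 organoids had 55.99 and 33.4 TPM of Rarb and Sox2_P2 cells 1.77 and 0.893 TPM.

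The genes that fell included both tested enzymes that break retinoic acid down. Cyp26b1 had 0.0769 and 0 TPM in LCP_sorted_D0 cells, against 28.9 and 10.5 TPM in Lgr5_P2 cells (log2 difference -4.16, SE 0.47, adjusted p = 5.98e-05). Cyp26a1 was listed at 0 in both LCP_sorted_D0 libraries, against 4.10 and 2.65 TPM in Lgr5_P2 cells (adjusted p = 0.00784), and missed the threshold without Lgr5_P2 replicate 1 (adjusted p = 0.063). Both LCP_D0 libraries also listed Cyp26a1 at 0, while Sox2_P2 cells had 3.66 and 0 TPM. Rxrg, a partner receptor, had 0.324 and 0.818 TPM in LCP_sorted_D0 cells, against 4.53 and 6.57 TPM in Lgr5_P2 cells (log2 difference -2.06, SE 0.32, adjusted p = 0.00054). Crabp2, which carries retinoic acid to the nucleus, overlapped between the groups (45.1 and 80.3 TPM in LCP_sorted_D0 cells, against 120.3 and 68.1 TPM in Lgr5_P2 cells, adjusted p = 0.843), and Rara was at 23.6 and 16.01 TPM in LCP_sorted_D0 cells, against 35.02 and 33.1 TPM in Lgr5_P2 cells (adjusted p = 0.13). The retinoic acid list kept 5 higher genes in each of the 4 fits that leave out 1 library, and 2 to 4 lower genes.

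**Figure D2:**
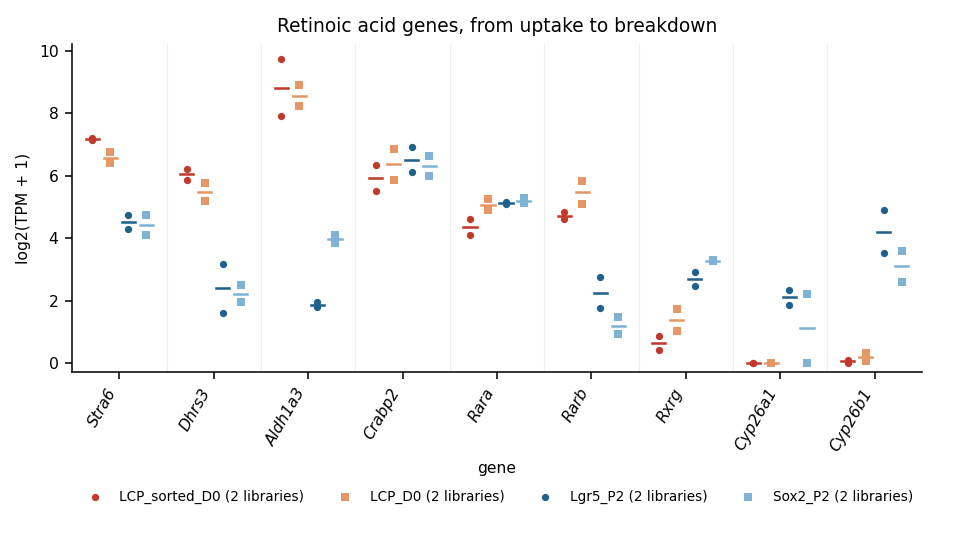
Log2(TPM + 1) of 9 retinoic acid genes in LCP_sorted_D0, LCP_D0, Lgr5_P2 and Sox2_P2 libraries (points, 2 per group, with the group mean as a bar), ordered from uptake on the left through synthesis and receptors to breakdown on the right. Aldh1a3, Dhrs3, Stra6 and Rarb stand higher in both cultured groups than in both native ones, and Cyp26b1 and Rxrg lower.

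Promoter windows of Rarb and Cyp26a1 are printed because the response element of this pathway is a direct repeat and these 2 genes of the list hold it. RefSeq windows (GRCm38.p6) run from 250 bases before to 50 bases after a gene's start. GTTCA was searched on both strands as 2 copies in the same orientation with 6 bases between them, and 0.0761% of 32851 windows held it. Capitals mark the 2 copies, which read as TGAAC in Cyp26a1. The Rarb window lies at chr14:16575427-16575726 on the minus strand and the Cyp26a1 window at chr19:37697558-37697857 on the plus strand.
Rarb: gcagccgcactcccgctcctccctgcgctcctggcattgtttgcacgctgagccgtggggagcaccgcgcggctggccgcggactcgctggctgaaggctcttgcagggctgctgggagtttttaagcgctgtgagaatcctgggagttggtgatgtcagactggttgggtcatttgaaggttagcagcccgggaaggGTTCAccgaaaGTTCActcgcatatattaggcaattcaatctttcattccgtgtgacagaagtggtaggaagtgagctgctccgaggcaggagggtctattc
Cyp26a1: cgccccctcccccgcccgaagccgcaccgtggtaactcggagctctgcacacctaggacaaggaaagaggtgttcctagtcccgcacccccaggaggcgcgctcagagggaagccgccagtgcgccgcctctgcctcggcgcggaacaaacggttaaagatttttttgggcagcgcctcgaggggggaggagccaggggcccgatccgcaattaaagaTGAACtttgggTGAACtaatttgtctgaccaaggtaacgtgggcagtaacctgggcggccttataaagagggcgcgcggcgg
Rarb was higher in LCP_sorted_D0 and Cyp26a1 was listed at 0 there, so the 2 genes with this repeat moved in opposite directions. A match is a description of letters and not evidence of binding.

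Metallothioneins, small proteins that bind zinc and copper, were among the largest gains. Mt1 (mm10 chromosome 8, 94179082 to 94180327) had 244 and 176 TPM in LCP_sorted_D0 cells, against 10.1 and 6.13 TPM in Lgr5_P2 cells (log2 difference 4.55, SE 0.62, adjusted p = 0.000221). Mt2 had 44.01 and 33.1 TPM in LCP_sorted_D0 cells, against 1.69 and 0.283 TPM in Lgr5_P2 cells (log2 difference 4.40, SE 0.89, adjusted p = 0.00358). Mt3, the member best known from brain, had 32.4 and 38.3 TPM in LCP_sorted_D0 cells, against 2.71 and 2.19 TPM in Lgr5_P2 cells (log2 difference 3.40, SE 0.75, adjusted p = 0.00616). Cultured libraries lay far above native Lgr5 libraries in all of these genes. In Sox2_P2 cells the levels were nearer to culture, at 29.8 and 61.2 TPM for Mt1, 12.6 and 11.2 TPM for Mt2 and 5.39 and 26.97 TPM for Mt3. In the test of LCP_sorted_D0 against Sox2_P2, Mt1 passed (log2 difference 2.25, adjusted p = 0.0201). Mt2 (log2 difference 1.61, adjusted p = 0.241) and Mt3 (log2 difference 1.44, adjusted p = 0.21) did not. Of the exon bases of Mt2, 73.5% lie over exons of an antisense gene, and the library kits do not mark the strand, so reads of the 2 cannot be told apart.

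The metallothionein windows are shown because metal-responsive promoters are known for clustered copies of a short core. TGCACNC and TGCGCNC were searched on both strands; 12.6% and 15.4% of the 32851 windows held a match. Capitals mark the matches, 3 in Mt1 (chr8:94178839-94179138, plus strand) and 4 in Mt2 (chr8:94172368-94172667, plus strand).
Mt1: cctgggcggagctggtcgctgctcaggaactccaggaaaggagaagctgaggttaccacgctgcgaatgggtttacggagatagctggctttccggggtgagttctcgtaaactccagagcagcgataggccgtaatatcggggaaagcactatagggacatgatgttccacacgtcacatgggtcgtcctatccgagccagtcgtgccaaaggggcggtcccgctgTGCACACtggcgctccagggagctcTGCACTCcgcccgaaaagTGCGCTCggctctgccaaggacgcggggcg
Mt2: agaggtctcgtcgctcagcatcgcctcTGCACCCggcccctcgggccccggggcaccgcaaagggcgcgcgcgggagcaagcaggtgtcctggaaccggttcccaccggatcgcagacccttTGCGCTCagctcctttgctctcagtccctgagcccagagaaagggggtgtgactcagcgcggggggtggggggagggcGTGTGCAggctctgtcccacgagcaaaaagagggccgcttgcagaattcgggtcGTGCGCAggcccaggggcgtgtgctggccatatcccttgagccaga

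The wider list of antioxidant and glutathione genes had 10 members higher and 1 lower of 38 tested. That is 26.3% higher and 2.63% lower, against 6.44% and 11.2% over all genes tested. Gstt1, a glutathione transferase, had 55.4 and 44.3 TPM in LCP_sorted_D0 cells, against 1.81 and 2.47 TPM in Lgr5_P2 cells (log2 difference 4.02, SE 0.74, adjusted p = 0.00177). Nfe2l2, the transcription factor NRF2 that controls many genes of this kind, had 24.8 and 21.9 TPM in LCP_sorted_D0 cells, against 4.89 and 8.05 TPM in Lgr5_P2 cells (log2 difference 1.73, SE 0.49, adjusted p = 0.0261). Its known targets Nqo1 and Hmox1 were also higher, Nqo1 at 3.31 and 5.81 TPM in LCP_sorted_D0 cells, against 0.849 and 0.501 TPM in Lgr5_P2 cells (log2 difference 1.70, SE 0.37, adjusted p = 0.00533) and Hmox1 at 9.89 and 9.65 TPM in LCP_sorted_D0 cells, against 1.54 and 2.49 TPM in Lgr5_P2 cells (log2 difference 1.86, SE 0.50, adjusted p = 0.0192). Nfe2l2 and Hmox1 lost their calls whichever of the 4 libraries was left out, and Nqo1 without either replicate 2 library. Their highest adjusted p was 0.168 for Nfe2l2, 0.0599 for Nqo1 and 0.12 for Hmox1. The calls of Nfe2l2 and Hmox1 thus needed all 4 libraries. Gpx4, the most abundant member that did not pass, had 1284 and 1882 TPM in LCP_sorted_D0 cells, against 1368 and 2196 TPM in Lgr5_P2 cells. Mgst3, a membrane-bound transferase, was the 1 that fell, at 48.7 and 44.5 TPM in LCP_sorted_D0 cells, against 259 and 356 TPM in Lgr5_P2 cells (log2 difference -2.68, SE 0.48, adjusted p = 0.00156). The higher count was 5 without LCP_sorted_D0 replicate 2 and 6 without Lgr5_P2 replicate 2.

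Hspb1, a small heat shock protein, had 124 and 67.2 TPM in LCP_sorted_D0 cells, against 1.20 and 0.647 TPM in Lgr5_P2 cells (log2 difference 5.60, SE 0.75, adjusted p = 0.000194). The native libraries were near 1 TPM and the cultured ones well above. Unsorted LCP_D0 organoids had 45.5 and 77.9 TPM of it, against 1.38 and 0.382 TPM in Sox2_P2 cells. Its list of immediate early and stress genes had 2 members higher and 5 lower of 32, with a median log2 difference of -0.76. These shares, 6.25% higher and 15.6% lower, were near the 6.44% and 11.2% over all genes tested. The lower count was 2 without either replicate 2 library and 3 without Lgr5_P2 replicate 1, and the higher count was 1 except without Lgr5_P2 replicate 1. Genes for protein folding in the endoplasmic reticulum had 0 calls of 23 by limma, with 1 at an unadjusted p of 0.05.

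Genes that load and present antigens on class I molecules rose together. In the list of interferon and antigen presentation genes, 14 of 27 were higher and 1 was lower in LCP_sorted_D0. The median log2 difference was 1.48. The shares were 51.9% higher and 3.70% lower, against 6.44% and 11.2% over all genes tested. H2-K1, a class I heavy chain, had 398 and 184 TPM in LCP_sorted_D0 cells, against 34.5 and 18.7 TPM in Lgr5_P2 cells (log2 difference 3.36, SE 0.42, adjusted p = 0.000112). H2-D1, another heavy chain, had 357 and 162 TPM in LCP_sorted_D0 cells, against 61.2 and 25.5 TPM in Lgr5_P2 cells (log2 difference 2.57, SE 0.50, adjusted p = 0.00269). B2m, the light chain that both need, had 289 and 191 TPM in LCP_sorted_D0 cells, against 30.9 and 24.9 TPM in Lgr5_P2 cells (log2 difference 3.04, SE 0.36, adjusted p = 8.06e-05). The libraries of the groups were well apart in all of these genes. H2-K1 and H2-D1 belong to a family of near-identical genes, so the split of reads between members is uncertain. LCP_D0 organoids had 247 and 310.0 TPM of B2m, against 26.5 and 24.8 TPM in Sox2_P2 cells.

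Parts of the loading machinery followed. Tap2, a subunit of the transporter that brings peptides to class I molecules, had 31.4 and 17.9 TPM in LCP_sorted_D0 cells, against 1.52 and 1.14 TPM in Lgr5_P2 cells (log2 difference 3.41, SE 0.60, adjusted p = 0.00127). Tap1, its partner, had 8.97 and 5.59 TPM in LCP_sorted_D0 cells, against 1.57 and 0.370 TPM in Lgr5_P2 cells (log2 difference 2.11, SE 0.55, adjusted p = 0.0167). Psmb8 and Psmb9, subunits of the immunoproteasome, were at 1.98 and 2.32 TPM in LCP_sorted_D0 cells, against 0.0276 and 0.229 TPM in Lgr5_P2 cells for Psmb8 (log2 difference 1.48, SE 0.30, adjusted p = 0.00353) and at 7.17 and 2.32 TPM in LCP_sorted_D0 cells, against 0.293 and 0 TPM in Lgr5_P2 cells for Psmb9 (log2 difference 2.20, SE 0.55, adjusted p = 0.0128). All of these stood at low levels in the native libraries. Ifitm3, an interferon-induced membrane protein, had 49.8 and 58.8 TPM in LCP_sorted_D0 cells, against 4.76 and 4.64 TPM in Lgr5_P2 cells (log2 difference 3.27, SE 0.56, adjusted p = 0.00111). The 1 lower member, Ifitm1, was listed at 0 in both LCP_sorted_D0 libraries, against 1.87 and 1.11 TPM in Lgr5_P2 cells (adjusted p = 0.0452), and was called in none of the 4 fits without a library. Irf1, a transcription factor of the interferon response, did not pass, with 16.9 and 13.1 TPM in LCP_sorted_D0 cells, against 13.1 and 7.75 TPM in Lgr5_P2 cells (adjusted p = 0.787). The groups nearly met in Irf1. Tap1 and Psmb9 missed the threshold without LCP_sorted_D0 replicate 1 or Lgr5_P2 replicate 2 (highest adjusted p = 0.158 for Tap1 and 0.101 for Psmb9). The list had 9 higher genes without LCP_sorted_D0 replicate 1, and 11 to 14 without any other library. Of 12 immune cell markers, 3 were tested and 2 of these were lower (1 without either replicate 2 library). The lower share of 66.7%, against 11.2% over all genes tested, rests on these 3 genes, since 9 of the 12 were not tested. The immune list summed to 2.93 and 1.69 TPM in LCP_sorted_D0 and 47.8 and 85.97 TPM in Lgr5_P2, and 6 of the 12 were at 0 in both LCP_sorted_D0 libraries. What part immune cells play in the antigen presentation genes was not tested.

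The promoters of H2-K1 and H2-D1 are shown side by side since the class I genes moved together. GGGNNTTCC, a form of the site bound by NF-kappaB factors, was searched on both strands and was present in 5.82% of the windows. Capitals mark the 1 match in each, in H2-K1 (chr17:34000298-34000597, minus strand, the first of 2 windows of the gene) and in H2-D1 (chr17:35262844-35263143, plus strand). Of the 26 genes on this list with a window, 4 held it.
H2-K1: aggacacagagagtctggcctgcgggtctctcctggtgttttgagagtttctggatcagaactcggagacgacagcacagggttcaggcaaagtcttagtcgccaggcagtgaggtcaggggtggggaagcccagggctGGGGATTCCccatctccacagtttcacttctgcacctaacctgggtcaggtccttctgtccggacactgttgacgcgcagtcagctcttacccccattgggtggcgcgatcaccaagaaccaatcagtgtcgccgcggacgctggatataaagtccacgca
H2-D1: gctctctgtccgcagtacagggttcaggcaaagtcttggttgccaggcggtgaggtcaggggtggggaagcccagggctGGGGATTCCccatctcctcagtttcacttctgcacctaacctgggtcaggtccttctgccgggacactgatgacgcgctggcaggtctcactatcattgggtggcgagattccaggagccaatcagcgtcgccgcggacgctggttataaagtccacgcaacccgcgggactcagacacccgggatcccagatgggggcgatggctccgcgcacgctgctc

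Most Wnt pathway genes did not pass the test. Of 37 tested, 6 rose and 3 fell (16.2% higher and 8.11% lower, against 6.44% and 11.2% over all genes tested). Besides Ccnd1, the higher genes included Nkd2 and Nkd1, inhibitors inside the cell that Wnt signaling itself switches on. Nkd2 had 13.2 and 5.29 TPM in LCP_sorted_D0 cells, against 0.294 and 0.365 TPM in Lgr5_P2 cells (log2 difference 2.83, SE 0.41, adjusted p = 0.000331). Nkd1 had 66.4 and 21.6 TPM in LCP_sorted_D0 cells, against 11.8 and 10.2 TPM in Lgr5_P2 cells (log2 difference 1.71, SE 0.49, adjusted p = 0.0259). Tcf7, a transcription factor that works with beta-catenin, had 58.9 and 23.9 TPM in LCP_sorted_D0 cells, against 6.92 and 4.93 TPM in Lgr5_P2 cells (log2 difference 2.50, SE 0.62, adjusted p = 0.0125), and Lgr6, a receptor related to Lgr5, had 93.9 and 41.5 TPM in LCP_sorted_D0 cells, against 13.3 and 8.49 TPM in Lgr5_P2 cells (log2 difference 2.44, SE 0.52, adjusted p = 0.00468). Each was higher in both cultured libraries than in both native ones, with the first cultured library highest. Axin2, a widely used Wnt target, was at 2.47 and 3.37 TPM in LCP_sorted_D0 cells, against 0.840 and 1.14 TPM in Lgr5_P2 cells and did not pass (adjusted p = 0.178). Axin2 was thus higher in both cultured libraries without reaching the threshold. The other higher gene was Fzd10, a Wnt receptor, at 4.24 and 1.20 TPM in LCP_sorted_D0 cells, against 0.113 and 0 TPM in Lgr5_P2 cells (log2 difference 1.69, SE 0.37, adjusted p = 0.00592). Of the genes that fell, Fzd9, a Wnt receptor, had 6.59 and 19.1 TPM in LCP_sorted_D0 cells, against 147 and 91.6 TPM in Lgr5_P2 cells (log2 difference -3.24, SE 0.51, adjusted p = 0.000577). Sfrp2, a secreted inhibitor, and the ligand Wnt7b also fell, with log2 differences of -2.82 for Sfrp2 and -1.59 for Wnt7b. Both missed the threshold without either replicate 1 library, and Sfrp2 also without LCP_sorted_D0 replicate 2. Of the 6 higher genes, Ccnd1 and Nkd2 kept their calls in all 4 fits. Fzd10 missed it without LCP_sorted_D0 replicate 1 (adjusted p = 0.0508). Nkd1 did not pass without Lgr5_P2 replicate 1. Nkd1 and Tcf7 did not pass without LCP_sorted_D0 replicate 1, and Nkd1, Tcf7 and Lgr6 did not pass without Lgr5_P2 replicate 2. The higher count was 3 without that library or without LCP_sorted_D0 replicate 1, and 10 without LCP_sorted_D0 replicate 2.

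In the fibroblast growth factor (FGF) pathway, 3 of 30 tested genes were higher and 7 lower (10.0% higher and 23.3% lower, against 6.44% and 11.2% over all genes tested), and Fgfr3 and Fgf8 were among the lower ones. Fgfr3 (mm10 chromosome 5, 33721674 to 33737068), the receptor that marks pillar and Deiters' cells, had 0.988 and 1.91 TPM in LCP_sorted_D0 cells, against 216 and 94.7 TPM in Lgr5_P2 cells (log2 difference -5.90, SE 0.80, adjusted p = 0.000219). Fgf8, the ligand made by inner hair cells, had 0.367 and 0 TPM in LCP_sorted_D0 cells, against 25.5 and 40.98 TPM in Lgr5_P2 cells (log2 difference -4.83, SE 0.73, adjusted p = 0.000441). Both genes were near 0 in culture and high in both native libraries. Fgfr2 was also lower, at 1.06 and 5.71 TPM in LCP_sorted_D0 cells, against 12.8 and 57.5 TPM in Lgr5_P2 cells (log2 difference -2.93, SE 0.77, adjusted p = 0.0174), but missed the threshold without Lgr5_P2 replicate 2 (adjusted p = 0.206) and without LCP_sorted_D0 replicate 1. Fgfr1 did not pass, at 6.66 and 10.6 TPM in LCP_sorted_D0 cells, against 28.7 and 14.96 TPM in Lgr5_P2 cells (adjusted p = 0.177).

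The FGF genes that rose act downstream of the receptors. Spry4, an inhibitor of the pathway that the pathway switches on, had 8.11 and 10.1 TPM in LCP_sorted_D0 cells, against 1.35 and 0.150 TPM in Lgr5_P2 cells (log2 difference 2.61, SE 0.42, adjusted p = 0.00066). Il17rd, another feedback inhibitor, had 6.62 and 6.35 TPM in LCP_sorted_D0 cells, against 0.761 and 0.131 TPM in Lgr5_P2 cells (log2 difference 2.41, SE 0.37, adjusted p = 0.000516). Etv4, a transcription factor target, had 44.8 and 75.3 TPM in LCP_sorted_D0 cells, against 17.4 and 7.18 TPM in Lgr5_P2 cells (log2 difference 2.27, SE 0.57, adjusted p = 0.0131), but missed the threshold without Lgr5_P2 replicate 2 (adjusted p = 0.147) and without LCP_sorted_D0 replicate 2. Both replicates of each group agreed in order for these genes, at low levels for Spry4 and Il17rd. Dusp6, a phosphatase target, overlapped between the groups at 104 and 66.3 TPM in LCP_sorted_D0 cells, against 85.96 and 27.5 TPM in Lgr5_P2 cells (adjusted p = 0.325). The higher count ran from 2 to 5 when 1 library was left out, being 2 without either replicate 2 library and 5 without Lgr5_P2 replicate 1.

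Of 40 tested transcription factors of the inner ear, 4 rose and 6 fell, shares (10.0% higher and 15% lower) near the 6.44% and 11.2% over all genes tested. Hmx3, which is needed for the vestibular part of the inner ear, had 6.43 and 13.8 TPM in LCP_sorted_D0 cells and was listed at 0 in both Lgr5_P2 libraries (adjusted p = 0.00103). Dlx3, a homeobox gene, had 12.1 and 18.5 TPM in LCP_sorted_D0 cells, against 0.325 and 0 TPM in Lgr5_P2 cells (log2 difference 3.80, SE 0.77, adjusted p = 0.0036). Emx2, a homeobox gene that sets hair bundle orientation and is expressed in the cochlear epithelium, was listed at 0 in both LCP_sorted_D0 libraries, against 20.3 and 16.8 TPM in Lgr5_P2 cells (adjusted p = 3.76e-06). The groups were thus fully apart in each of these genes. Lmo3, a LIM-domain partner of transcription factors, had 0.346 and 0.00572 TPM in LCP_sorted_D0 cells, against 13.97 and 28.6 TPM in Lgr5_P2 cells (log2 difference -4.18, SE 0.35, adjusted p = 6.39e-06). Prox1, expressed in pillar and Deiters' cells, had 0.366 and 0 TPM in LCP_sorted_D0 cells, against 16.6 and 5.49 TPM in Lgr5_P2 cells (log2 difference -3.19, SE 0.41, adjusted p = 0.000151). Gata3, a factor of the whole prosensory domain, stayed high but was lower, at 373 and 183 TPM in LCP_sorted_D0 cells, against 1409 and 1056 TPM in Lgr5_P2 cells (log2 difference -2.22, SE 0.43, adjusted p = 0.00241).

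Sox9 and Sox10, which mark the otic epithelium more broadly, did not pass the test. Sox9 was at 113 and 56.6 TPM in LCP_sorted_D0 cells, against 97.01 and 43.98 TPM in Lgr5_P2 cells (adjusted p = 0.718). Sox10 was at 80.8 and 82.1 TPM in LCP_sorted_D0 cells, against 45.6 and 33.7 TPM in Lgr5_P2 cells (adjusted p = 0.245). Both were above 30 TPM in all 4 libraries. Hmx2, a relative of Hmx3, and Meis1 were the other genes called higher, with log2 differences of 1.22 for Hmx2 and 1.47 for Meis1. Hmx2 was called in none of the 4 fits without a library, and Meis1 only in that without Lgr5_P2 replicate 1. The higher count for the list was 2 without LCP_sorted_D0 replicate 2 or Lgr5_P2 replicate 2.

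Otol1 rose while Tectb fell. It encodes otolin, a collagen-like protein of the otoconia in the vestibular organs, and had 481 and 353 TPM in LCP_sorted_D0 cells, against 29.6 and 44.1 TPM in Lgr5_P2 cells (log2 difference 3.48, SE 0.59, adjusted p = 0.00101). Otop1, an ion channel needed to form otoconia, had 1.36 and 13.4 TPM in LCP_sorted_D0 cells and was listed at 0 in both Lgr5_P2 libraries (adjusted p = 0.0453). It did not pass without LCP_sorted_D0 replicate 2 (adjusted p = 0.421) or without either Lgr5_P2 library. LCP_D0 organoids had 264 and 268 TPM of Otol1 and 4.68 and 9.08 TPM of Otop1, against 22.2 and 6.66 TPM of Otol1 in Sox2_P2 cells, where Otop1 was listed at 0.

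Tectb (mm10 chromosome 19, 55180733 to 55196313), which encodes beta-tectorin of the tectorial membrane, was abundant in the native sort and far lower in the cultured one. It had 23.8 and 2.07 TPM in LCP_sorted_D0 cells, against 4399 and 1562 TPM in Lgr5_P2 cells (log2 difference -8.23, SE 1.15, adjusted p = 0.000267). The log2 difference was -7.47 within the replicate 1 sequencing date and -8.99 within that of replicate 2. Smpx, a small protein of muscle and inner ear on the same list, had 4.79 and 0.0903 TPM in LCP_sorted_D0 cells, against 308 and 744 TPM in Lgr5_P2 cells (log2 difference -7.58, SE 0.93, adjusted p = 0.000106). Both genes were thus far apart between the groups. Atoh1_P2 cells had 672 and 1141 TPM of Smpx. In Smpx, Lgr5_P2 replicate 1 was lower than replicate 2, the order of the summed hair cell genes, while Tectb had the opposite order. What hair cells in the native sort contribute to either gene was not tested. Tecta, for alpha-tectorin, was at 84.99 and 79.6 TPM in LCP_sorted_D0 cells, against 698 and 141 TPM in Lgr5_P2 cells (adjusted p = 0.11). Otog, for otogelin, was at 20.9 and 16.5 TPM in LCP_sorted_D0 cells, against 42.9 and 15.3 TPM in Lgr5_P2 cells (adjusted p = 0.826), and Col9a3, a collagen chain, at 311 and 331 TPM in LCP_sorted_D0 cells, against 1748 and 869.5 TPM in Lgr5_P2 cells (adjusted p = 0.051). These 3 genes did not pass the test and were all detected in culture. Of 18 tested genes of the tectorial and otolithic matrix, 2 rose and 4 fell. That is 11.1% higher and 22.2% lower, against 6.44% and 11.2% over all genes tested. The others that fell were Col11a2, a collagen chain, with a log2 difference of -2.37, and Matn4, a matrilin, with -2.38. Col11a2 was called in none of the 4 fits without a library. Matn4 missed the threshold without LCP_sorted_D0 replicate 2 or Lgr5_P2 replicate 1. The lower count was 2 without LCP_sorted_D0 replicate 2 or Lgr5_P2 replicate 1, and the higher count was 1 without Lgr5_P2 replicate 2. LCP_D0 organoids had 59.6 and 58.4 TPM of Tectb, against 1515 and 507 TPM in Sox2_P2 cells, and Atoh1_P2 cells had 479 and 295 TPM.

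Supporting cell genes as a list fell more often than they rose. Of 41 tested, 3 were higher and 11 lower, with a median log2 difference of -0.98. That is 7.32% higher and 26.8% lower, against 6.44% and 11.2% over all genes tested. Igfbp3, which binds insulin-like growth factors, had 0.785 and 0.859 TPM in LCP_sorted_D0 cells, against 658 and 151 TPM in Lgr5_P2 cells (log2 difference -7.44, SE 0.71, adjusted p = 1.8e-05). Fabp7, a fatty acid binding protein of supporting cells, had 1.74 and 0.601 TPM in LCP_sorted_D0 cells, against 315 and 246 TPM in Lgr5_P2 cells (log2 difference -7.06, SE 0.45, adjusted p = 9.14e-07). Both were below 2 TPM in each LCP_sorted_D0 library. Unsorted LCP_D0 organoids had 34.5 and 10.4 TPM of Igfbp3 and 1.41 and 1.51 TPM of Fabp7. Trh, the thyrotropin-releasing hormone precursor, was listed at 0 in both LCP_sorted_D0 libraries, against 48.5 and 8.72 TPM in Lgr5_P2 cells (adjusted p = 0.000186), but was near 0 in Sox2_P2 cells too (0.0808 and 0 TPM). Nupr1, a stress-responsive chromatin protein, had 2.10 and 3.13 TPM in LCP_sorted_D0 cells, against 95.7 and 438 TPM in Lgr5_P2 cells (log2 difference -5.85, SE 1.36, adjusted p = 0.00858), and missed the threshold without Lgr5_P2 replicate 2 (adjusted p = 0.0994). Higher members were Aldh1a3, Lgr6 and Etv4, described above. Skp1a, the most abundant member that did not pass, had 2608 and 1345 TPM in LCP_sorted_D0 cells, against 4010.4 and 3416 TPM in Lgr5_P2 cells (adjusted p = 0.40). The lower count was 7 without Lgr5_P2 replicate 1, and the higher count 1 without Lgr5_P2 replicate 2.

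In the Notch pathway, some ligands and effectors were lower. Of 27 tested, 0 rose by limma (1 at an unadjusted p of 0.05) and 7 fell. The lower share was 25.9%, against 11.2% over all genes tested. Hes5, a Notch target that represses hair cell genes in supporting cells, had 56.5 and 2.14 TPM in LCP_sorted_D0 cells, against 1901 and 225 TPM in Lgr5_P2 cells (log2 difference -5.61, SE 1.26, adjusted p = 0.00706). The second library of each group was far below the first, and Hes5 missed the threshold without LCP_sorted_D0 replicate 2 (adjusted p = 0.0966) and without Lgr5_P2 replicate 1. Its log2 difference was -5.05 within the replicate 1 date and -6.17 within that of replicate 2. Unsorted LCP_D0 organoids had 153 and 21.8 TPM and Sox2_P2 cells 285 and 101 TPM, which did not pass (adjusted p = 0.396).

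Hes1, a related Notch target that also responds to growth signals, ran the other way in level. It had 1570.5 and 929 TPM in LCP_sorted_D0 cells, against 657 and 167 TPM in Lgr5_P2 cells, without overlap, and did not pass (log2 difference 1.86, SE 1.17, adjusted p = 0.335). Against Sox2_P2 cells it did pass, both for LCP_sorted_D0 (log2 difference 3.58, adjusted p = 0.0455) and for LCP_D0 (log2 difference 3.54, adjusted p = 0.0425). Hey1 overlapped, at 262 and 103 TPM in LCP_sorted_D0 cells, against 253 and 69.2 TPM in Lgr5_P2 cells (adjusted p = 0.87), as did the receptor Notch1, at 68.6 and 45.7 TPM in LCP_sorted_D0 cells, against 87.2 and 22.9 TPM in Lgr5_P2 cells (adjusted p = 0.862). Jag1, the ligand of supporting cells, overlapped too, at 119.8 and 5.59 TPM in LCP_sorted_D0 cells, against 132 and 31.8 TPM in Lgr5_P2 cells (adjusted p = 0.559).

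The ligands that fell are known from native hair cells. Jag2 (mm10 chromosome 12, 112907819 to 112929776) had 3.88 and 5.11 TPM in LCP_sorted_D0 cells, against 36.7 and 50.1 TPM in Lgr5_P2 cells (log2 difference -3.01, SE 0.39, adjusted p = 0.000152). Dll3, a ligand-like protein of hair cells, had 0.388 and 0.202 TPM in LCP_sorted_D0 cells, against 32.4 and 41.2 TPM in Lgr5_P2 cells (log2 difference -4.86, SE 0.74, adjusted p = 0.000515). Mfng, an enzyme that sugar-modifies Notch, had 3.06 and 0.343 TPM in LCP_sorted_D0 cells, against 57.6 and 96.9 TPM in Lgr5_P2 cells (log2 difference -5.02, SE 0.73, adjusted p = 0.000367). Native Atoh1 cells had more of each than the Lgr5_P2 libraries, with 77.2 and 103 TPM of Jag2, 90.9 and 65.7 TPM of Dll3 and 165 and 173 TPM of Mfng. Dll1 and Dll4, further ligands, had log2 differences of -2.65 for Dll1 (adjusted p = 0.00697) and -2.77 for Dll4 (adjusted p = 0.000319), and Dll1 missed the threshold without Lgr5_P2 replicate 2 (adjusted p = 0.0648). Hes6, a relative of Hes5 that hair cells express, had 66.2 and 81.5 TPM in LCP_sorted_D0 cells, against 284 and 439.8 TPM in Lgr5_P2 cells (log2 difference -2.25, SE 0.35, adjusted p = 0.000551). The Notch list had 6 to 9 lower genes when 1 library was left out, and 1 higher gene without LCP_sorted_D0 replicate 2.

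The Hes5 promoter window is printed because Hes5 is a direct Notch target and had the largest drop of the list. GTGGGAA, a core of the site bound by RBPJ, the DNA-binding partner of Notch, was searched on both strands, and 6.38% of the windows held it. Capitals mark 2 matches, 1 on each strand (chr4:154960673-154960972, plus strand). Of 22 genes on the Notch list with a window, 3 held the core.
Hes5: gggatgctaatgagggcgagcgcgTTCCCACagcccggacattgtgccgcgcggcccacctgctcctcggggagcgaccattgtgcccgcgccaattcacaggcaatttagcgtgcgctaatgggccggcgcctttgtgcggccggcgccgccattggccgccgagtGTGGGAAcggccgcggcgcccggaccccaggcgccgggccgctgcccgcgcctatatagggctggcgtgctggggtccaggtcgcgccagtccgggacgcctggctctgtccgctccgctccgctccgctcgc

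Hair cell genes had the highest share of lower calls of any list with at least 5 tested members. Of 43 tested, 38 were lower and 0 were higher in LCP_sorted_D0 by limma (0 also at an unadjusted p of 0.05), with a median log2 difference of -4.87. The shares were 88.4% lower and 0% higher, against 11.2% and 6.44% over all genes tested. Summed over the list, they made up 258 and 173 TPM in LCP_sorted_D0, against 4262 and 8177 TPM in Lgr5_P2 and 10656 and 14055 TPM in Atoh1_P2 cells. In bulk samples, fewer cells of a type and less RNA per cell cannot be told apart, and how far hair cells inside the native sort set this loss was not tested. Atoh1, the factor on which hair cell formation depends, had 0.676 and 0.0105 TPM in LCP_sorted_D0 cells, against 36.2 and 72.6 TPM in Lgr5_P2 cells (log2 difference -5.33, SE 0.66, adjusted p = 0.000115). Pou4f3, which keeps hair cells alive, had 0.0664 and 0 TPM in LCP_sorted_D0 cells, against 23.5 and 39.96 TPM in Lgr5_P2 cells (log2 difference -4.94, SE 0.67, adjusted p = 0.000204). Both were near 0 in the second cultured library.

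Calb1, a calcium buffer, had 0.0648 and 0.158 TPM in LCP_sorted_D0 cells, against 249 and 440.4 TPM in Lgr5_P2 cells (log2 difference -8.23, SE 0.51, adjusted p = 9.14e-07). Lhfpl5, a protein of the mechanotransduction channel complex, had 0.978 and 0.0197 TPM in LCP_sorted_D0 cells, against 217 and 378 TPM in Lgr5_P2 cells (log2 difference -7.66, SE 0.84, adjusted p = 4.34e-05). Chrna9, a subunit of the receptor for efferent nerve input, had 0.185 and 0 TPM in LCP_sorted_D0 cells, against 106 and 191 TPM in Lgr5_P2 cells (log2 difference -7.04, SE 0.69, adjusted p = 2.25e-05). These genes were below 1 TPM in both cultured libraries and above 100 TPM in both native ones. Myo7a, a myosin of the hair bundle, had 0.791 and 0.345 TPM in LCP_sorted_D0 cells, against 58.3 and 63.7 TPM in Lgr5_P2 cells (log2 difference -5.32, SE 0.59, adjusted p = 4.63e-05). The lower count of the list was 35 to 39 when any 1 library was left out.

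Several of the largest losses were not on the hair cell list but were abundant in Atoh1_P2 cells. Defb25, a beta-defensin gene, had 1.82 and 0 TPM in LCP_sorted_D0 cells, against 352 and 1123 TPM in Lgr5_P2 cells (log2 difference -8.55, SE 0.75, adjusted p = 9.23e-06), with 951 and 1113 TPM in Atoh1_P2 cells. Fcrlb, an Fc receptor-like gene, had 0.0809 and 0 TPM in LCP_sorted_D0 cells, against 216 and 400.0 TPM in Lgr5_P2 cells (log2 difference -8.15, SE 0.49, adjusted p = 7.77e-07), with 646 and 1525 TPM there. Insc, a protein that orients cell division and polarity, had 0.564 and 0.0620 TPM in LCP_sorted_D0 cells, against 158 and 262 TPM in Lgr5_P2 cells (log2 difference -7.31, SE 0.59, adjusted p = 5.02e-06), with 418 and 579 TPM there. In all of these genes Lgr5_P2 replicate 1 was lower than replicate 2, the order of the summed hair cell genes. With 2 libraries only 2 orders are possible, and the part of hair cells in these losses was not tested.

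**Figure D3:**
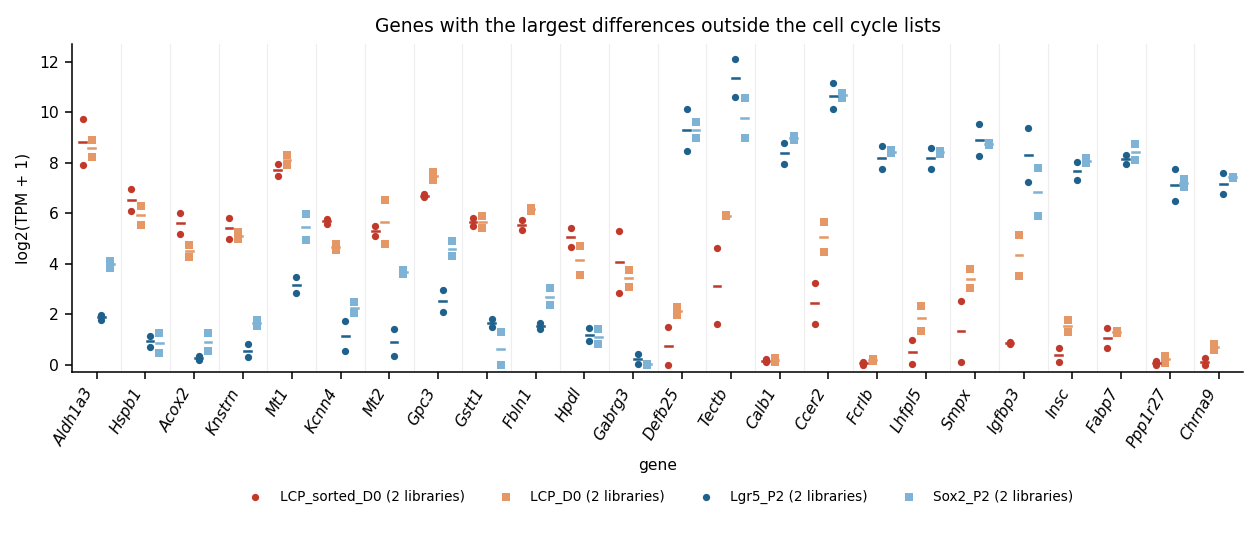
Log2(TPM + 1) of the 12 genes with the highest and the 12 with the lowest log2 difference, among called genes outside the cell cycle and ribosomal lists, in LCP_sorted_D0, LCP_D0, Lgr5_P2 and Sox2_P2 libraries (points, 2 per group, with the group mean as a bar). The 2 cultured groups lie together on the high side for the genes on the left and on the low side for the genes on the right, and Igfbp3 and Tectb are higher in LCP_D0 than in LCP_sorted_D0.

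Genes of motile cilia and potassium channels mostly fell or did not pass. Of 22 tested genes of motile cilia, 15 fell and 1 rose, with a median log2 difference of -2.31. That is 68.2% lower and 4.55% higher, against 11.2% and 6.44% over all genes tested. Dynlrb2, a dynein light chain, had 2.38 and 3.40 TPM in LCP_sorted_D0 cells, against 121 and 293 TPM in Lgr5_P2 cells (log2 difference -5.62, SE 0.78, adjusted p = 0.000263), and Foxj1, the transcription factor of motile cilia, had 0.0941 and 0.401 TPM in LCP_sorted_D0 cells, against 5.77 and 13.96 TPM in Lgr5_P2 cells (log2 difference -3.02, SE 0.55, adjusted p = 0.00161). Atoh1_P2 cells had 334 and 348 TPM of Dynlrb2. The lower count was 9 without LCP_sorted_D0 replicate 2 and 7 without Lgr5_P2 replicate 2. The gene called higher was Dnaic1, a dynein chain, at 8.41 and 10.9 TPM in LCP_sorted_D0 cells, against 1.82 and 1.04 TPM in Lgr5_P2 cells (log2 difference 2.14, SE 0.57, adjusted p = 0.0189), and it passed in only 1 of the 4 fits without a library, that without LCP_sorted_D0 replicate 1 (highest adjusted p = 0.132). Of 19 potassium channel genes, 6 fell and 1 rose (31.6% lower and 5.26% higher). Kcnj13, an inward rectifier, had 2.13 and 0 TPM in LCP_sorted_D0 cells, against 125 and 309 TPM in Lgr5_P2 cells (log2 difference -6.80, SE 0.60, adjusted p = 1.02e-05). Kcna10, a voltage-gated channel, had 0.0668 and 0 TPM in LCP_sorted_D0 cells, against 36.8 and 55.6 TPM in Lgr5_P2 cells (log2 difference -5.49, SE 0.73, adjusted p = 0.000196). Native Atoh1_P2 cells had 262 and 792 TPM of Kcnj13 and 67.5 and 116 TPM of Kcna10. Exons of Gigyf2, a protein-coding gene, lie over 49.1% of the exon bases of Kcnj13, and the library kits do not mark the strand. The channel that rose was Kcnn4, which opens with calcium, at 46.3 and 53.9 TPM in LCP_sorted_D0 cells, against 2.31 and 0.463 TPM in Lgr5_P2 cells (log2 difference 4.53, SE 0.45, adjusted p = 2.3e-05). Without LCP_sorted_D0 replicate 2 the list had 2 higher genes.

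**Figure D4:**
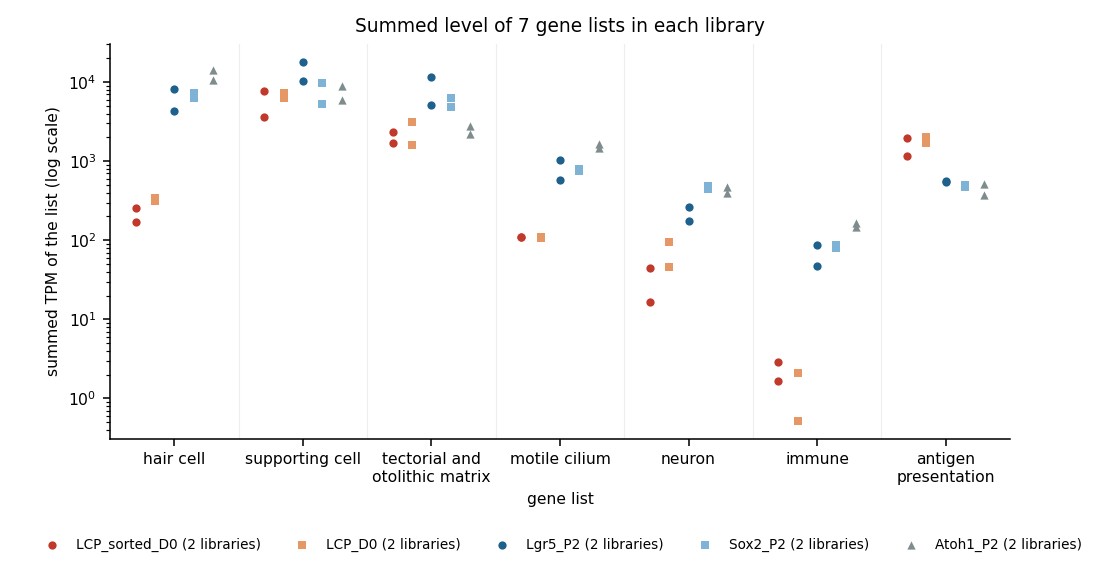
Summed TPM of 7 gene lists in each library of LCP_sorted_D0, LCP_D0, Lgr5_P2, Sox2_P2 and Atoh1_P2 (points, 2 per group, log axis). Hair cell, motile cilium, neuron and immune lists are lower in both cultured groups than in all 3 native groups, and the antigen presentation list is higher.

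Genes of the matrix and of secreted proteins changed in both directions. Tnc, for tenascin-C, had 0.372 and 0.232 TPM in LCP_sorted_D0 cells, against 84.7 and 83.3 TPM in Lgr5_P2 cells (log2 difference -6.03, SE 0.33, adjusted p = 7.77e-07). Nid1, for the basement membrane protein nidogen, rose, at 22.9 and 10.2 TPM in LCP_sorted_D0 cells, against 1.46 and 0.349 TPM in Lgr5_P2 cells (log2 difference 3.17, SE 0.49, adjusted p = 0.000562). Against Sox2_P2 cells, which had 4.84 and 11.2 TPM, Nid1 did not pass (log2 difference 0.96, adjusted p = 0.204). The cultured and Sox2_P2 libraries overlapped in Nid1. The list of basement membrane and integrin genes, which holds Tnc and Nid1, had 2 higher and 4 lower of 33 tested. Its shares, 6.06% higher and 12.1% lower, were near the 6.44% and 11.2% over all genes tested. Clu, for the secreted chaperone clusterin, stayed abundant but lower, at 383 and 245 TPM in LCP_sorted_D0 cells, against 3520.4 and 3181 TPM in Lgr5_P2 cells (log2 difference -3.44, SE 0.44, adjusted p = 0.000147). Wfdc2, a secreted protease inhibitor of epithelia, was far higher, at 759.9 and 1681 TPM in LCP_sorted_D0 cells, against 72.8 and 92.6 TPM in Lgr5_P2 cells (log2 difference 3.77, SE 0.54, adjusted p = 0.000305). Cxcl14, a chemokine, had 0.835 and 0.314 TPM in LCP_sorted_D0 cells, against 29.4 and 57.3 TPM in Lgr5_P2 cells (log2 difference -4.76, SE 0.95, adjusted p = 0.00313). Clu and Cxcl14 were lower and Wfdc2 higher in each cultured library than in either native one. Of 22 gene identifiers on the list of chemokines and secreted proteins, 10 fell and 2 rose. That is 45.5% lower and 9.09% higher, against 11.2% and 6.44% over all genes tested. The other that rose, Cxcl1, passed in only 1 of the 4 fits without a library, that without Lgr5_P2 replicate 1 (highest adjusted p = 0.162).

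The other large gains came from separate families. Acox2, a peroxisomal oxidase that acts on bile acid precursors, had 35.5 and 64.1 TPM in LCP_sorted_D0 cells, against 0.267 and 0.144 TPM in Lgr5_P2 cells (log2 difference 5.34, SE 0.37, adjusted p = 1.54e-06). Gpc3, a membrane-anchored proteoglycan that limits growth signals, had 99.4 and 107 TPM in LCP_sorted_D0 cells, against 6.79 and 3.29 TPM in Lgr5_P2 cells (log2 difference 4.17, SE 0.86, adjusted p = 0.00388). Fbln1, the matrix protein fibulin, had 38.9 and 52.8 TPM in LCP_sorted_D0 cells, against 2.17 and 1.66 TPM in Lgr5_P2 cells (log2 difference 3.99, SE 0.48, adjusted p = 9.29e-05). In these genes every cultured library was above every Lgr5_P2 library. Gpc3 was at 18.7 and 28.5 TPM in Sox2_P2 cells, against which it did not pass (log2 difference 2.11, adjusted p = 0.105). Its level in the Sox2 sort therefore lay between culture and the Lgr5 sort. Hpdl, which takes part in making the side group of coenzyme Q, had 42.1 and 24.5 TPM in LCP_sorted_D0 cells, against 1.73 and 0.906 TPM in Lgr5_P2 cells (log2 difference 3.86, SE 0.52, adjusted p = 0.00020). Gabrg3, a subunit of the receptor for the transmitter GABA, had 38.6 and 6.08 TPM in LCP_sorted_D0 cells, against 0.353 and 0.00702 TPM in Lgr5_P2 cells (log2 difference 3.84, SE 0.63, adjusted p = 0.000841), and its cultured libraries differed from each other more than those of Hpdl. Scd1, which makes monounsaturated fatty acids, had 37.6 and 17.97 TPM in LCP_sorted_D0 cells, against 0.763 and 1.06 TPM in Lgr5_P2 cells (log2 difference 3.83, SE 0.50, adjusted p = 0.000166).

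Smarca2, an ATPase of the BAF chromatin remodeling complex, had 75.7 and 100.0 TPM in LCP_sorted_D0 cells, against 18.8 and 9.01 TPM in Lgr5_P2 cells (log2 difference 2.64, SE 0.39, adjusted p = 0.000393). Ezh2, the enzyme that places the repressive mark of Polycomb on histones, had 65.99 and 61.2 TPM in LCP_sorted_D0 cells, against 23.7 and 11.1 TPM in Lgr5_P2 cells (log2 difference 1.90, SE 0.35, adjusted p = 0.00173). Both were higher in each cultured library than in either native one. In LCP_D0 against Sox2_P2, Ezh2 passed in limma (log2 difference 1.61, adjusted p = 0.0046) and Smarca2 did not (log2 difference 1.10, adjusted p = 0.0547). Their list of chromatin regulators had 3 higher and 2 lower of 54 tested. These shares, 5.56% higher and 3.70% lower, were under the 6.44% and 11.2% over all genes tested.

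Several lists stayed near or under the share of calls over all genes. Of 76 genes for oxidative phosphorylation, 0 passed in limma and 1 had an unadjusted p under 0.05, and the count was 0 in each of the 4 fits without a library. Of 11 ErbB ligands and receptors, 0 passed in limma and 3 had an unadjusted p under 0.05, and 2 were called lower without LCP_sorted_D0 replicate 1 and 1 higher without Lgr5_P2 replicate 1. Ribosomal protein genes had 4 of 78 higher and 0 lower by limma, with a median log2 difference of 0.54. At an unadjusted p of 0.05 they had 32 higher and 0 lower, and the count of calls was 0 without LCP_sorted_D0 replicate 2 or Lgr5_P2 replicate 2. In LCP_D0 against Sox2_P2, 38 ribosomal protein genes were called higher.

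**Figure D5:**
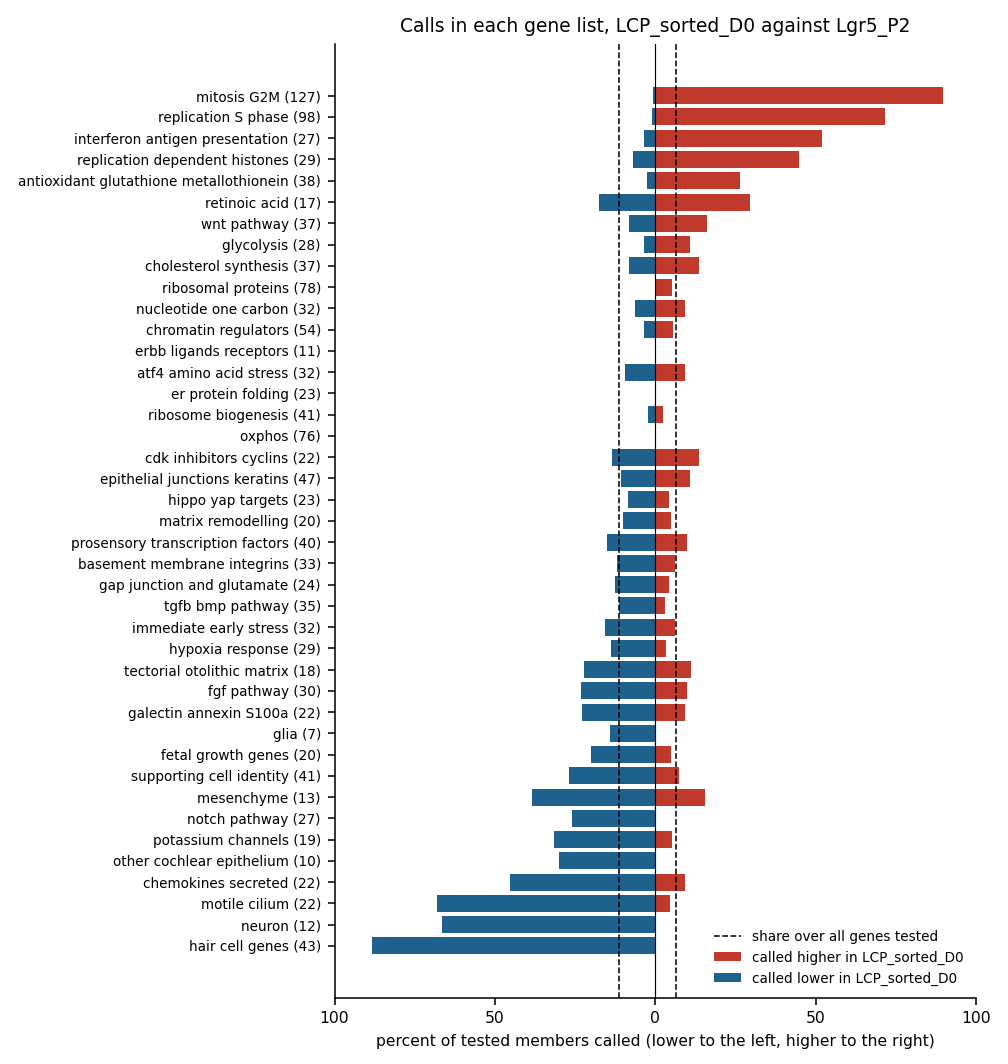
Percent of the tested members of each gene list (number tested in brackets) called higher (red, right) or lower (blue, left) in LCP_sorted_D0 against Lgr5_P2, with dashed lines at the shares over all genes tested, 6.44% higher and 11.2% lower; lists with under 5 tested members are left out. Mitosis, replication, antigen presentation and histone lists extend farthest to the right, and hair cell, motile cilium and neuron lists farthest to the left.

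Markers of other cell types differed from list to list. Neuron markers had 8 of 12 lower and 0 higher by limma (0 at an unadjusted p of 0.05), with 5 lower without LCP_sorted_D0 replicate 2 and 4 without Lgr5_P2 replicate 2. The lower share of neuron markers was 66.7% in the main fit, against 11.2% over all genes tested. Neuron markers summed to 45.04 and 16.5 TPM in LCP_sorted_D0 and 175 and 264 TPM in Lgr5_P2. Nefl, a neurofilament, had 0.108 and 0 TPM in LCP_sorted_D0 cells, against 28.9 and 81.6 TPM in Lgr5_P2 cells (log2 difference -5.56, SE 1.03, adjusted p = 0.00193). Native Atoh1_P2 cells had 69.8 and 152 TPM of Nefl. Mesenchyme markers moved both ways, with 2 higher and 5 lower of 13. That is 15.4% higher and 38.5% lower, against 6.44% and 11.2% over all genes tested. Col3a1 and Otor, a collagen and a secreted protein of otic mesenchyme, were listed at 0 in both LCP_sorted_D0 libraries, against 42.2 and 9.49 TPM of Col3a1 and 92.7 and 28.3 TPM of Otor in Lgr5_P2 cells (adjusted p = 0.00616 for Col3a1 and 0.00207 for Otor). Both were present in each native library. Without Lgr5_P2 replicate 1, Col3a1 did not pass (adjusted p = 0.0732). Dcn, a small proteoglycan of connective tissue that epithelia can also express, was the member that rose most, at 895 and 421 TPM in LCP_sorted_D0 cells, against 113 and 60.3 TPM in Lgr5_P2 cells (log2 difference 2.88, SE 0.53, adjusted p = 0.00196). Prrx1, a mesenchymal transcription factor, was the other, at 3.61 and 1.63 TPM in LCP_sorted_D0 cells, against 0.233 and 0.0405 TPM in Lgr5_P2 cells (log2 difference 1.62, SE 0.35, adjusted p = 0.00583). Prrx1 missed the threshold without LCP_sorted_D0 replicate 1 or Lgr5_P2 replicate 2. Col1a2, Pdgfra and Pdgfrb, a collagen chain and 2 receptors of mesenchyme, fell, with log2 differences of -4.18 for Col1a2, -2.26 for Pdgfra and -2.37 for Pdgfrb. The higher count was 1 without LCP_sorted_D0 replicate 1 or Lgr5_P2 replicate 2. The summed mesenchyme list was 1885 and 825 TPM in LCP_sorted_D0 and 641 and 987 TPM in Lgr5_P2. Lum, another small proteoglycan, was at 718 and 238 TPM in LCP_sorted_D0 cells, against 242 and 596 TPM in Lgr5_P2 cells and did not pass (adjusted p = 0.943). Markers of other cochlear epithelium had 3 of 10 lower (30%, against 11.2% over all genes tested). They summed to 70.9 and 102 TPM in LCP_sorted_D0 and 450.2 and 962 TPM in Lgr5_P2. Glia markers summed to 387 and 228 TPM in LCP_sorted_D0 and 606 and 369 TPM in Lgr5_P2. What part other cell types in the native sort play in the lower genes was not tested.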

How the data were processed

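RNA was sequenced from sorted cochlear cells and cochlear organoids, 18 libraries in 9 groups of 2. The authors deposited 1 table of TPM per library, and the submitters' processing notes name STAR, Salmon, FastQC, DESeq2 and mm10 without versions or roles. Per the labels' protocols, libraries were made from small amounts of RNA by a SMARTer kit and read from 1 end. Of 47729 gene identifiers, 47310 matched GENCODE M21 for symbol, type and position. Protein-coding genes that reached 1 TPM in 2 or more of the 4 libraries entered the test. Limma 3.58.1 (R 4.3.3) was fitted to log2(TPM + 1) in all 18 libraries with a mean per group, which borrows the spread from all 9 groups, with 9 residual degrees of freedom. P-values were adjusted by Benjamini-Hochberg, with a threshold of 0.05, and the script was tested on simulated data. The p-values rest on the spread between the 2 libraries of a group, pooled over all 9 groups, which may be technical. A fit of the 4 compared libraries alone kept 1452 of the 2249 calls.

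Members and gene lists were chosen with earlier results of these data known. Genes were named as the 12 highest and 12 lowest log2 differences among called genes averaging at least 10 TPM in the higher group, outside cell cycle and ribosomal lists and without overlap between groups. Up to 4 called members per list with the largest differences, the most abundant uncalled member, and 8 fixed genes were added. A further 57 of the 134 genes named in the text were chosen after their values were seen. A few genes are not reported here.

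Both replicate 1 libraries share a labelled sequencing date, as do both replicate 2 libraries, so the numbers pair the samples by date, and their deviations from the group means correlated at 0.19 over genes. Extraction dates do not pair them. For Lgr5_P2 replicate 1 the labelled extraction date is later than its sequencing date, so those labels cannot both be right. Alternatives were other pseudocounts, filters, gene types, scalings, sets of libraries in the fit, a replicate block, and leaving out each library. Depth is unknown from TPM.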

Additional observations from a re-analysis of the deposited data

How the results depend on the processing

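The count of genes differing between LCP_sorted_D0 and Lgr5_P2 stayed within 1.5 times of 2249 under other pseudocounts (2063 to 2174), filters (1572 to 2237), gene types (2242), scalings (2327 to 2359) and fits of fewer libraries (1562 to 1808). With a replicate block, that is, pairing by sequencing date, 2727 genes passed, including all 2249, so it changed no call among them. For LCP_sorted_D0 against Sox2_P2 the replicate block gave 3165 calls. For LCP_D0 against Sox2_P2, where the labelled dates of replicate 1 differ between the groups, it gave 2406 higher genes in place of 1538. Leaving out 1 library gave 1217 to 2324 calls for LCP_sorted_D0 against Lgr5_P2 (429 to 658 higher, 788 to 1739 lower), 1441 to 2650 against Sox2_P2 (447 to 779 higher, 970 to 1984 lower), and 1417 to 2502 for LCP_D0 against Sox2_P2 (556 to 1295 higher, 861 to 1207 lower). The lone library is then assumed to vary like the other groups. Of the 112 named genes that passed, 81 passed in all 4 fits without 1 library and 31 did not.

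TPM gives no depth, so no counting error can be set beside low values. Rescaling without mitochondrial and ribosomal protein genes gave 45.34% of calls higher in LCP_sorted_D0, against 36.55% as deposited. With bulk RNA and a native sort that held hair cell transcripts, a different mixture of cells cannot be told apart from a different level per cell.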
